A study of Mus musculus with 8 samples.

Results

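The interleukin receptor genes described here are 39 protein-coding mouse genes, out of 21627 on the autosomes and the X chromosome. They were chosen by symbol (Il, digits, then r or st). The pattern took 42 symbols, and Il1rn, Il10rb and Il15ra were left out of it. The genes were followed through 2 lists of accessible chromatin from unstimulated mouse dendritic cells. The question was which of the receptor genes carry open chromatin at their ends and around them before any stimulus is given.

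The study holds 8 samples of mouse dendritic cells that the labels call CD8-positive. Of these, 6 are ChIP-seq libraries, 2 each for IRF3 in cells given high molecular weight poly(I:C), IRF5 in cells given class B CpG and IRF9 in cells given IFN-beta, all for 90 min, and they were not analysed here. The 2 samples used are ATAC-seq libraries of cells that received no stimulus, in which a transposase cuts and tags accessible DNA in nuclei. One label field gives splenic dendritic cells as the source and another gives a cell line, and nothing in the labels says that the 2 replicates came from separate cultures. No genotype, strain or age is used, since there is 1 group and no comparison between conditions.

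Interleukin receptors are surface proteins that carry the signal of a secreted interleukin into the cell. Most are built from a chain that binds 1 cytokine and a chain shared by several, such as the common gamma chain, gp130 or the accessory chain of the interleukin-1 family. Receptors of the interleukin-1 family signal through MyD88 and IRAK kinases, those of the interleukin-17 family through the adaptor Act1, and most others through JAK kinases and STAT factors. Some members bind a cytokine without signalling and act as decoys. Dendritic cells use such receptors to read the cytokines of neighbouring T cells, epithelium and stroma.

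Of the 39 genes, 33 had at least 1 transcription start with sequence in the RefSeq promoter table (GRCm38.p6, the build whose chromosomes are those of mm10). Il22ra2, Il2rb, Il17ra, Il12rb1, Il27ra and Il10ra are named only. An accessible region shared by both replicates, called a shared region below, overlapped the stretch from 250 bases before to 50 after a listed start in 9 of the 33. The upstream stretches of 5 of these 9 are shown, taken from 3 receptor families. The count of 9 also includes the promoters not shown, those of Il1r2, Il3ra, Il1rap and Il13ra1. At Il13ra1 only 15 of 250 bases lay in the region. Capitals mark bases inside the shared region and lower case marks bases outside it. Each reads 5′ to 3′ on the strand of its gene and ends either just before the listed start or, for Il17rd and Il7r, where the annotated gene begins. Il6ra encodes the chain that binds interleukin-6. Its stretch is chr3:89913197-89913446 on the minus strand, with 151 of 250 bases in the region. Il6st encodes gp130, the shared signalling chain of the interleukin-6 family. Its stretch is chr13:112463820-112464069 on the plus strand, with 179 of 250 bases in the region. Il4ra encodes the chain for interleukin-4 and interleukin-13. Its stretch is chr7:125552021-125552270 on the plus strand, with 167 of 250 bases in the region. Il7r encodes the chain for interleukin-7 and TSLP. Its stretch is chr15:9529942-9530126 on the minus strand, with 67 of 185 bases in the region. Il17rd encodes a relative of the interleukin-17 receptors also called Sef. Its stretch is chr14:27038751-27038963 on the plus strand, with 130 of 213 bases in the region.
Il6ra: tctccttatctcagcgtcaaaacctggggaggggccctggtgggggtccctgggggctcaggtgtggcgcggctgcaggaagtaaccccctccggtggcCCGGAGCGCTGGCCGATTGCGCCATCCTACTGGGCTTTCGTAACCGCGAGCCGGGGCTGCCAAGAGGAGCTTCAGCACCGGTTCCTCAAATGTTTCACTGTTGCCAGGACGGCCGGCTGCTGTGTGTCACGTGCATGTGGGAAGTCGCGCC
Il6st: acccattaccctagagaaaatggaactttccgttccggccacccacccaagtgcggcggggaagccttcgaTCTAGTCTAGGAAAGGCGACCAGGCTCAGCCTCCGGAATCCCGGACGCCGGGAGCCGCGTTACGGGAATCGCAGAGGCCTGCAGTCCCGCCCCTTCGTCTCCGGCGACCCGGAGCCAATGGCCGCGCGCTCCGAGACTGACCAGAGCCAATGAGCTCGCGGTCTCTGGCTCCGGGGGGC
Il4ra: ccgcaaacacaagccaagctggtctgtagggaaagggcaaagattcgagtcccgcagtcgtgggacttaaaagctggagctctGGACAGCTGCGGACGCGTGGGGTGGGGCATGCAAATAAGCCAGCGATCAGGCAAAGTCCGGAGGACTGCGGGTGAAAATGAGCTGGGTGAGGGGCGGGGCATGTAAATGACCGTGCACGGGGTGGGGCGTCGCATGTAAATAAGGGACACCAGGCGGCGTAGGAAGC
Il7r: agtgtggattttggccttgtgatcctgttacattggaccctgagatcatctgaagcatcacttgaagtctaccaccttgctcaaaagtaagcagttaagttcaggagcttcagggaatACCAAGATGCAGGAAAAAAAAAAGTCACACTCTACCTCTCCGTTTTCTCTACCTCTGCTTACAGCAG
Il17rd: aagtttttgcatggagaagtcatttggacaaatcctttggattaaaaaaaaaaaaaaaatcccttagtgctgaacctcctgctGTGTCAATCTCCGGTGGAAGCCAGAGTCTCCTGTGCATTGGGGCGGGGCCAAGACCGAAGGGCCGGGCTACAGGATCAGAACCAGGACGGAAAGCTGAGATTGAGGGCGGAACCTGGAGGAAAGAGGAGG

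The receptor promoters that were open differed in their letters. The letters of 6 short motifs were searched on both strands in the 250 bases before each listed start, 38 starts for the receptor genes and 21044 for all coding genes. A match is a description of letters and not a site of binding. The interferon-stimulated response element GAAANNGAA was in 0 of the 38 receptor stretches and in 6.9% of all, and the NF-kB letters GGGANTTTC were in 0 of the 38 and in 0.927% of all. The STAT letters TTCNNNGAA were in 5 of the 38 receptor stretches (13.2%) and in 6.64% of all. The AP-1 letters TGANTCA were also in 5 of the 38 (13.2%), against 6.17% of all.

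Il1r2, the decoy receptor for interleukin-1, held the STAT letters 111 bases before its start, inside its shared region. Il7r held them 142 bases before its start, just outside its region. The other carriers of the STAT letters, Il12rb2, Il18r1 and Il31ra, had no shared region in the promoter stretch. None of the 9 overlapped promoters held the AP-1 letters, which were in those of Il13ra2, Il17rb, Il20ra, Il22ra1 and Il5ra. The PU.1-like letters GAGGAA, a short form common in promoters, were in 11 of the 38 (28.9%) and in 22.5% of all. Among the overlapped promoters they were in those of Il6ra, 70 bases before the start, and Il17rd, 51 bases before the start, inside the region in both. The E-box CACGTG was in 2 of the 38 (5.26%), those of Il1r2 and Il6ra, and in 6.7% of all. In Il6ra it began 24 bases before the start, inside the region. With so few promoters, none of these shares separates the receptor genes from the rest, and no test was made.

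The Il4ra stretch held the letters ATGNAAAT, an octamer-like form, 3 times, beginning 139, 67 and 34 bases before the start and all inside the region. These letters were chosen after the sequence was seen. At least 3 copies stood in 5 of the 21044 promoter stretches (0.0238%), and any copy in 4.57%. The base composition of the receptor promoters went with overlap by a region, as it did over all coding genes. The median share of G and C was 65.2% in the 9 overlapped receptor stretches and 50% in the other 29, against 61.2% and 51.2% over all coding genes. Il7r was the lowest of the 9, at 44%.

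The 2 replicates listed 50950 and 58319 peaks covering 8.71 and 11.2 Mb, and 44365 shared regions resulted when peaks of the lists overlapped by at least 1 bp. The lowest background at any summit was 0.676 reads in replicate 1 and 1.28 in replicate 2, which makes replicate 2 the deeper if reads were extended alike in both. The weakest listed summits held 7 and 9 reads, the median summits 17 and 22. A gene with no peak therefore had none that was detectable at this depth and threshold, and its chromatin is not shown to be closed. In such bulk libraries a weak region in every cell and a strong region in few cells cannot be told apart. Over all coding genes, 47.8% carried a shared region at an end, by the limit of 1 kb used below. Of marker genes of CD8-positive dendritic cells, 7 of 12 (58.3%) (Xcr1, Irf8, Flt3, Itgax, Cadm1, Tlr3 and Id2) carried such a region, and Clec9a, Batf3, Cd8a, Zbtb46 and Itgae did not. The count was 4 of 6 (66.7%) for macrophage and monocyte markers, 1 of 7 for T cells (Cd3d), 1 of 5 for B cells (Ms4a1), and 0 for 6 natural killer cell, 6 neutrophil and 4 mast cell and basophil markers. These counts do not settle the cell type, and the part of other cells in the receptor values was not tested.

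A shared region lay within 1 kb of an end of 14 of the 39 receptor genes (35.9%), against 47.8% of all coding genes. Ends are the outermost ends of all transcripts of a gene. Within 1 kb of a listed start, the count was 9 of 33 receptor genes (27.3%) and 49.3% of all coding genes with one, and for the promoter stretch itself it was again 9 of 33, against 45.4%. A shared region overlapped the body of 27 of the 39 receptor genes (69.2%) and 57.5% of all coding genes. One stood inside or within 50 kb of 36 receptor genes (92.3%) and of 79.5% of all coding genes. The receptor genes are longer, with a median of 35.3 kb against 17.3 kb, so their windows are wider. No test was made on these counts, which describe 1 condition in 2 libraries.

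By family, the counts at gene ends were 3 of 9 in the interleukin-1 family, 4 of 9 in the common gamma chain family, 1 of 2 in the common beta chain family, 3 of 9 among gp130 and interleukin-12 receptors, 1 of 5 in the interleukin-10 family and 2 of 5 in the interleukin-17 family. The common gamma chain family as grouped here also holds Il13ra1 and Il13ra2, which bind interleukin-13 without the common gamma chain. Il13ra1 is among its 4 genes with a region. Each family had members with a region and members without one.

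**Figure D1:**
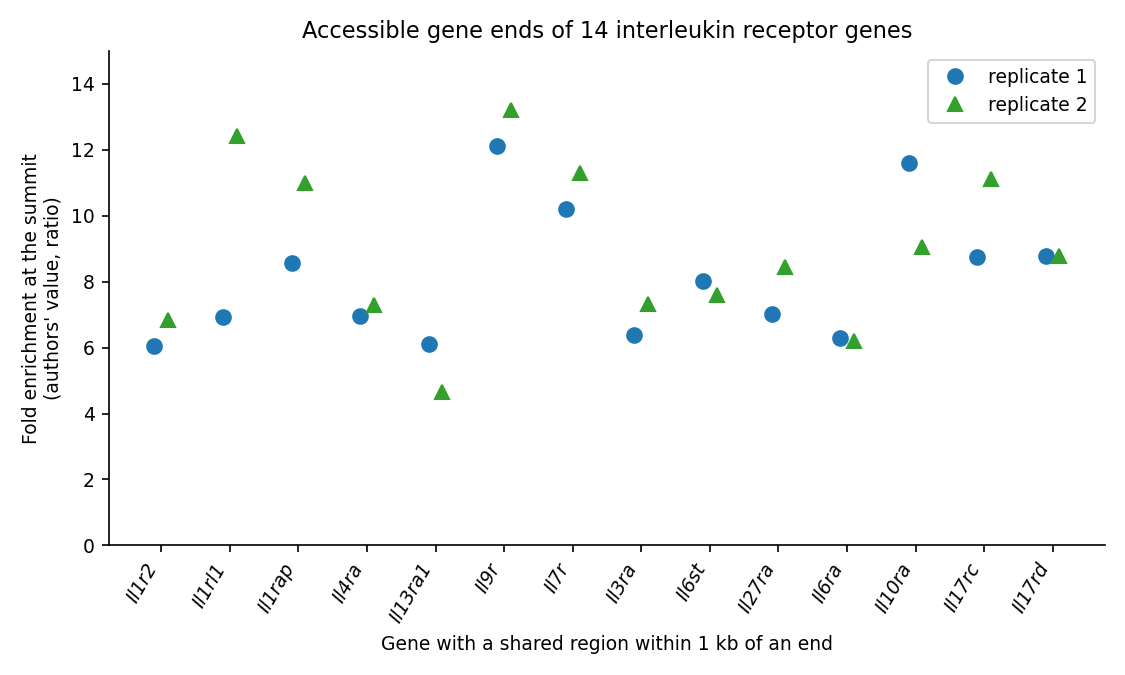
The 14 interleukin receptor genes with a shared region within 1 kb of an end (x axis) are plotted against the fold enrichment at the summit of their best-scoring end region (y axis, the authors' ratio), with 1 point per replicate. The values lie between 4.66 and 13.2, and the 2 points of most genes lie close together, with Il1rl1 the widest apart at 6.94 and 12.4.

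Values of single regions are given below as the fold enrichment that the authors deposited for the summit in replicates 1 and 2, with the reads at that summit. The ratio compares the reads at the summit with the background there in that library, with 1 added to each. It ranks regions within a list and is not a level of gene expression. In the interleukin-1 family, the decoy Il1r2 had a region at its outermost end, chr1:40084556-40084805, with fold enrichments of 6.06 and 6.85 from 31 and 50 reads. A weaker region, chr1:40085825-40086021, stood at its listed start with 4.23 and 4.37 from 21 and 31 reads. Both replicates therefore listed signal at the outermost end and at the listed start. Il1r2 had 12 regions in its window, and the best-scoring of them, chr1:40129456-40129655, lay 4226 bp outside the gene with 11.4 and 11.4 from 28 and 35 reads and ranked 3990.

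Il1rl1, the receptor for interleukin-33 that is also called ST2, had an end region at chr1:40404741-40404924 with 6.94 and 12.4 from 14 and 36 reads. That region lay at the outermost end of the gene, 24738 bp before the nearest listed start, and the replicates differed more there than at any other of the 14 genes. Il1rap, the accessory chain shared by the receptors for interleukin-1, interleukin-33 and interleukin-36, had a region at its start, chr16:26581560-26581799, with 8.55 and 11 from 15 and 28 reads. Its only other shared region, inside the gene at chr16:26689765-26690065, had 11.5 and 13.7 from 24 and 41 reads and was the stronger of the pair.

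Il1r1, the signalling chain for interleukin-1, had nothing shared at its ends but held a pair of strong regions inside it. The first, chr1:40294859-40295201, had 13.2 and 12.3 from 38 and 46 reads and ranked 754 of the 44365 shared regions by score. The second, chr1:40306192-40306467, had 14.5 and 17.4 from 25 and 40 reads and ranked 884. Signal at this gene was thus listed in its body and not at its ends. Both regions also lay within 50 kb of Il1rl2, the receptor for interleukin-36, and made up part of its count of 12.

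Il18r1 and Il18rap, the binding and accessory chains for interleukin-18, had 3 and 5 regions in their windows and none at an end. For Il18rap the nearest stood 39406 bp from the gene, and none lay inside it. Il1rapl1 and Il1rapl2, which belong to this family by sequence and are known from neurons, had 1 region each, inside genes whose windows span far more than the others. The Il1rapl1 region is taken up with the sites of highest fold enrichment below. The Il1rapl2 region, chrX:137700109-137700317, had 8.95 and 11 from 14 and 24 reads.

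The 6 genes from Il1r2 to Il18rap form a cluster on chromosome 1, chr1:40084692-40551707, which spans 467 kb. It had 30 shared regions in the windows of its members, and 14 of these were counted for more than 1 gene. Il1r1 and Il1rl2 had 6 regions in both windows, Il1rl2 and Il1rl1 had 7, Il1rl1 and Il18r1 had 3, and Il18r1 and Il18rap had 2. Il1rl1 and Il18r1 lie only 133 bp apart, and no shared region stood between them. Because the windows overlap, the counts per gene of this cluster are not independent.

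**Figure D2:**
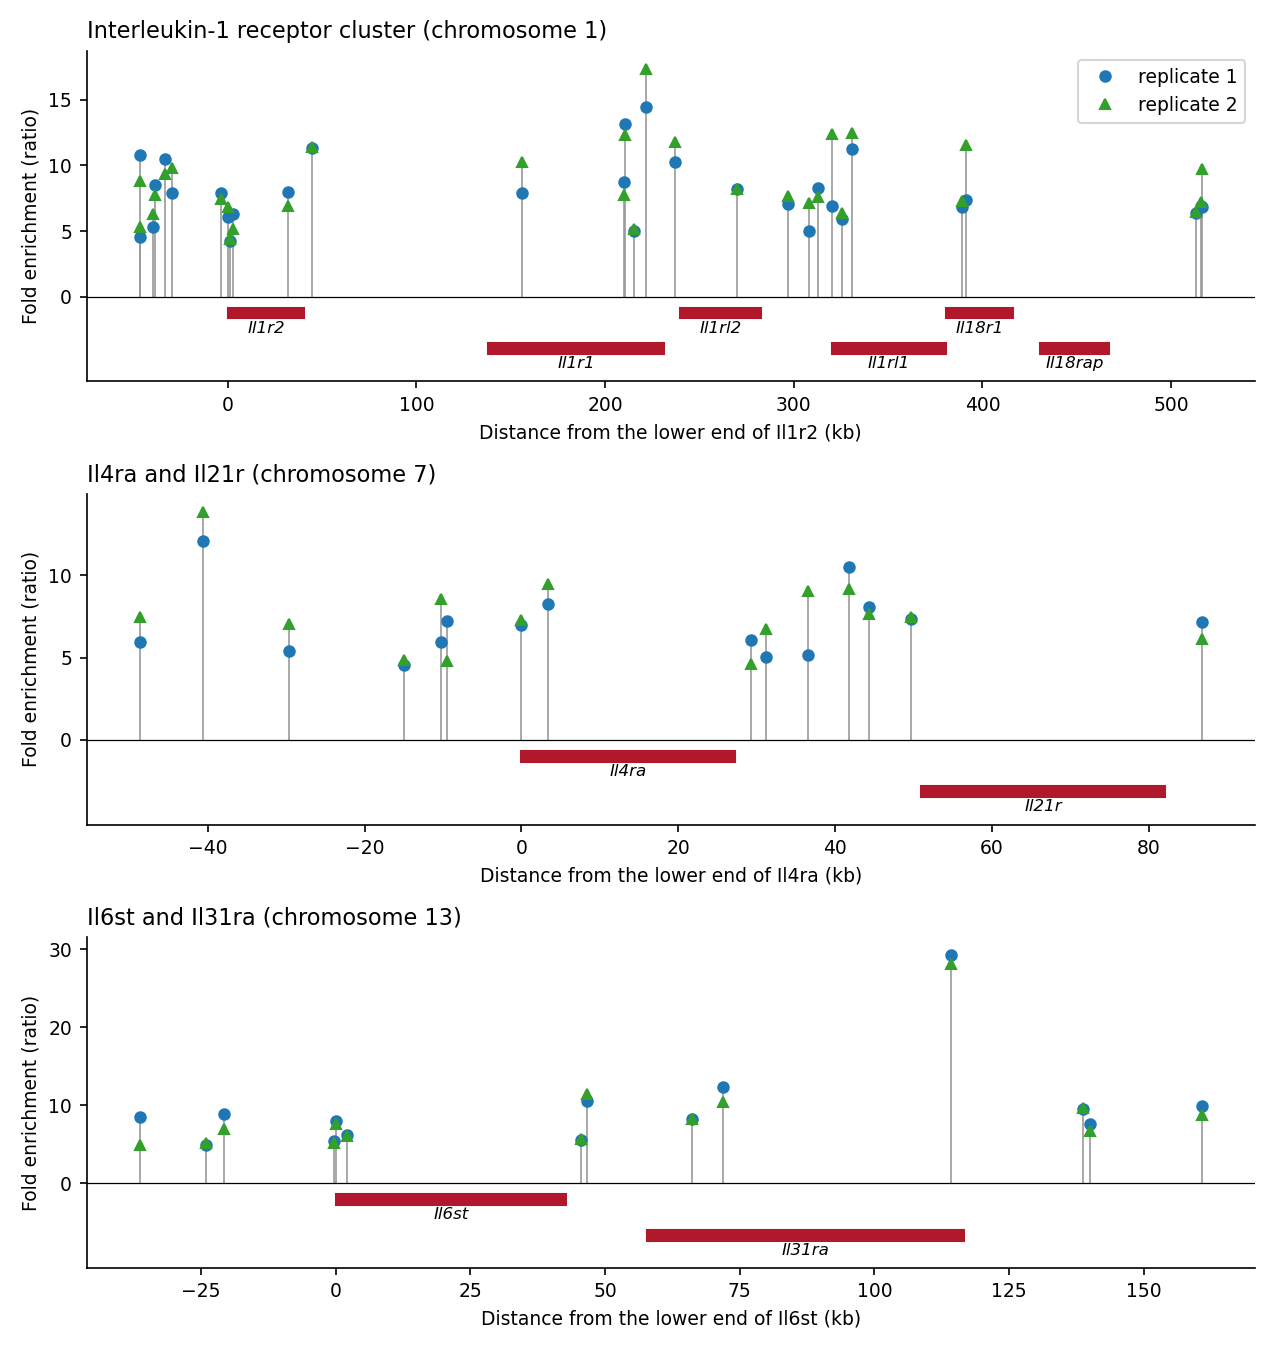
Shared regions around neighbouring interleukin receptor genes are drawn as fold enrichment at the summit (y axis, the authors' ratio, 1 mark per replicate) against distance in kb from the lower end of the first gene (x axis), with gene spans below the axis. In the interleukin-1 receptor cluster the highest marks stand inside Il1r1, between Il4ra and Il21r there are 6 regions, and in the Il6st and Il31ra panel the Il31ra region at 29.2 and 28 stands above the rest.

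In the common gamma chain family, Il4ra had 14 regions in its window, the second-highest count of the 39. Its start region, chr7:125552104-125552306, had 6.97 and 7.28 from 18 and 26 reads and covers the capitals of the Il4ra stretch printed above. Its strongest region was 40431 bp outside the gene, chr7:125511480-125511840, with 12.1 and 13.8 from 30 and 51 reads, and ranked 978 of all shared regions. None of the 14 lay at an end of another coding gene. Il21r, the receptor for interleukin-21, lies 23.8 kb away. It had 8 regions in its window, 7 of them shared with the Il4ra window, and none inside the gene. Of the regions near this pair, 6 stood between the genes.

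Il7r had a region at its start, chr15:9529817-9530008, with 10.2 and 11.3 from 19 and 32 reads. Il9r, the receptor for interleukin-9, had an end region with higher values, chr11:32205074-32205524, with 12.1 and 13.2 from 29 and 42 reads. This region also lay within 1 kb of an end of Snrnp25 and 5020 bp before the listed start of Il9r, so it belongs by position to both genes. Il13ra1, which pairs with Il4ra to bind interleukin-13, had the end region with the fewest summit reads of the 14, chrX:36112093-36112195, with 6.11 and 4.66 from 11 and 11 reads. These read numbers stand close to the fewest of either list.

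The 3 chains of the interleukin-2 receptor all lacked a shared end region. Il2ra, which encodes CD25, had 6 regions, the strongest of them 5251 bp outside the gene at chr2:11637102-11637541, with 12.8 and 12.3 from 31 and 43 reads and a rank of 1404. Il2rb, the chain shared with the interleukin-15 receptor, had 9 regions, the nearest to an end 1233 bp inside the gene at chr15:78510269-78510388, with 6.7 and 5.51 from 13 and 14 reads. Il2rg, the common gamma chain itself, had 4 regions, all at ends of other coding genes. The nearest, chrX:101273903-101274267, stood 5648 bp from Il2rg within 1 kb of an end of Med12 and had 10.3 and 9.28 from 17 and 24 reads. For Il13ra2, the decoy for interleukin-13, the nearest shared region was 436223 bp away.

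In the common beta chain family, Il3ra, the alpha chain for interleukin-3, had regions on both sides of its outermost end, both upstream of its listed start. The first, chr14:14345517-14345879, had 6.39 and 7.32 from 18 and 34 reads and the second, chr14:14346107-14346395, had 6.35 and 6.86 from 18 and 32. Il5ra, the alpha chain for interleukin-5, had none within 1 kb. Its nearest region, chr6:106750419-106750654, lay 1382 bp outside the gene with 9.45 and 13.7 from 15 and 34 reads. It was thus higher in fold enrichment than either Il3ra region in both lists but outside the limit of 1 kb. Its summit reads were fewer in replicate 1, 15 against 18 at both Il3ra regions. In replicate 2 they were 34 against 34 and 32.

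Among the gp130 and interleukin-12 receptors, the chains for interleukin-6 had regions at their starts. Il6ra had chr3:89913127-89913347 with 6.28 and 6.2 from 29 and 37 reads, and a weak end region inside the gene, chr3:89912484-89912601, with 3.31 and 3.62. A stronger region, chr3:89911205-89911590, lay 1606 bp inside the gene with 8.15 and 9.14 from 38 and 54 reads and ranked 2632. Il6st had chr13:112463891-112464175 with 8.01 and 7.58 from 29 and 38 reads, and beside it chr13:112463694-112463784 with 5.37 and 5.09 from 19 and 25. The region at the start of gp130 was thus above that of its binding chain in fold enrichment in both lists. Summit reads were nearly the same, 29 and 38 against 29 and 37. Il27ra, the chain for interleukin-27, had an end region at chr8:84042118-84042280, with 7.02 and 8.44 from 15 and 23 reads, that also lay within 1 kb of an end of Rln3.

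Il31ra, the chain for interleukin-31, lies 15.1 kb from Il6st and had no region at an end. It held instead the highest fold enrichments of all 198 regions around the receptor genes. The region, chr13:112578175-112578324, stood inside the gene, 2412 bp downstream of a listed start, with 29.2 and 28 from 54 and 70 reads, and ranked 19 of the 44365 shared regions by score. The next highest of the 198 in both lists was in Il1rapl1, chrX:87238328-87238445, with 18.5 and 18 from 30 and 40 reads and a rank of 277. A fold enrichment of at least 18 in both replicates, a limit chosen after these values were seen, was reached by 65 shared regions (0.147%), of which 3 (4.62%) were at a coding gene end (1 kb or nearer), against 29.1% of all other shared regions. Sites with ratios this high mostly stood away from gene ends over the whole list, and the receptor windows held 2 of the 65. At the Il1rapl1 region, as at that of Il1rapl2, the background was at the lowest of each list, 0.676 and 1.28 reads. A low background raises the ratio. A region near Il27ra, chr8:84066332-84066931, had 49 and 67 reads, more than that of Il1rapl1 and nearly as many as that of Il31ra. Its ratios were only 7.73 and 7.93 and its rank 1188, so its background was higher than at either.

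**Figure D3:**
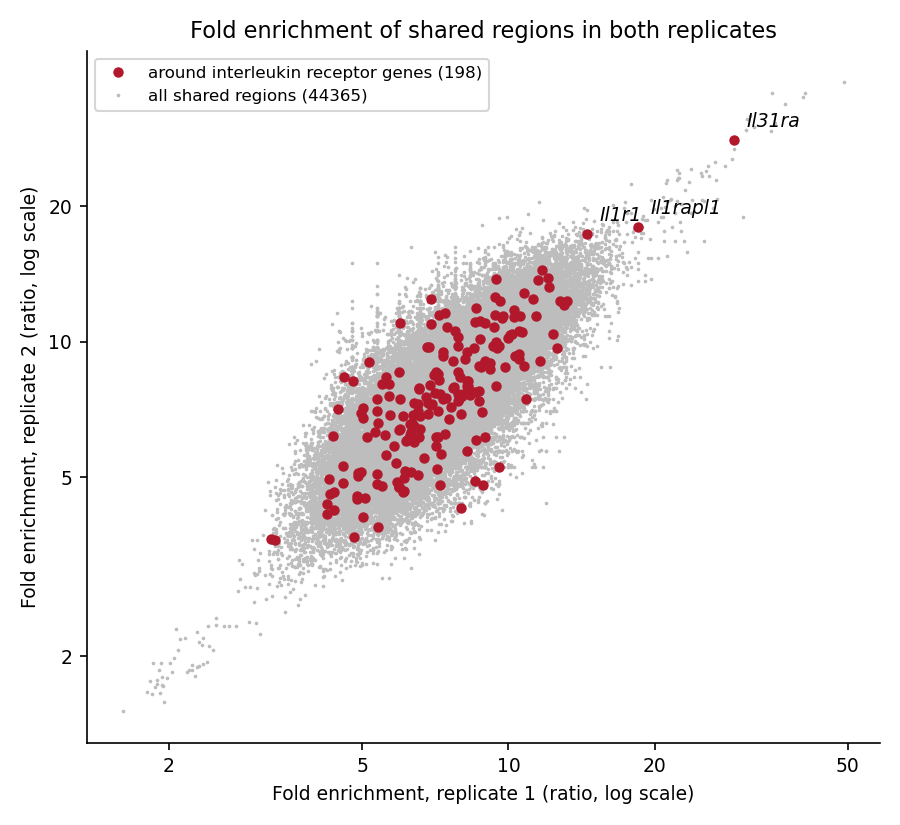
Each point is a shared region, with its fold enrichment in replicate 1 on the x axis and in replicate 2 on the y axis (the authors' ratio, both axes on a log scale), and the 198 regions around the interleukin receptor genes are drawn over all others, with the 3 highest in both replicates named. The receptor regions lie within the cloud of all regions, and the Il31ra region at 29.2 and 28 and the Il1rapl1 region at 18.5 and 18 stand in its upper tail.

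Il12rb1, the chain shared by the receptors for interleukin-12 and interleukin-23, had the most regions of the 39 genes, with 17 in its window and 14.8 per 100 kb. Of these 17, 9 lay within 1 kb of an end of another coding gene, so about as many stood at neighbouring genes as elsewhere. The highest in score, chr8:70839460-70840192, had 7.6 and 7.15 from 42 and 56 reads, lay 15918 bp outside the gene and was at an end of Arrdc2. Only 1 region lay inside Il12rb1, 1728 bp from an end at chr8:70821653-70821814, with 8.86 and 4.81 from 19 and 13 reads. The partner genes were at the other extreme. Il12rb2, the signalling chain for interleukin-12, had 1 region, at an end of Serbp1. Il23r, the binding chain for interleukin-23, had none, with the nearest shared region 155888 bp away.

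Il11ra1, the chain for interleukin-11, had 6 regions, all of them at ends of other coding genes. For its near-identical copy Il11ra2 the count was 0, and 64202 bp separated it from the closest shared region. No source used here says how the authors treated reads that fit more than 1 place, so the values at these copies are uncertain.

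In the interleukin-10 family, Il10ra, the binding chain for interleukin-10, was the only member of 5 with an end region. That region, chr9:45269083-45269253, had 11.6 and 9.05 from 27 and 26 reads. A region 7475 bp outside the gene, chr9:45246132-45246362, had 9.74 and 11.4 from 30 and 41 reads and ranked higher by score. None of the 9 regions around Il10ra lay at an end of another coding gene. Il20ra, Il20rb, Il22ra1 and Il22ra2, which serve cytokines that act mainly on epithelium, had 4, 2, 5 and 7 regions. Il20ra and Il22ra2 shared a region 34295 bp outside Il22ra2, chr10:19668976-19669405, with 13 and 12.1 from 31 and 39 reads.

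In the interleukin-17 family, Il17rd had a region at its start, chr14:27038834-27039060, with 8.78 and 8.79 from 18 and 26 reads. Il17rc, the chain for interleukin-17A and interleukin-17F, had an end region at chr6:113483144-113483559, with 8.76 and 11.1 from 28 and 47 reads. In replicate 1 its fold enrichment was about that of the Il17rd region, and in replicate 2 it was above it. That region lay at the far end of Il17rc, 11896 bp downstream of the listed start, and within 1 kb of an end of Creld1. Il17rc had 11 regions in its window, and Il17re, the chain for interleukin-17C, had 10. These genes lie 696 bp apart and had 9 regions in common, so most of their regions count for both genes. Il17rb, the chain for interleukin-25, had 3.

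At Il17ra, the chain shared by the interleukin-17 receptors, and at Il20ra, a peak within 1 kb of an end was listed in replicate 1 only. Il17ra had such peaks with 6.49 from 11 reads and 7.92 from 15 reads, and Il20ra had 1 with 6.15 from 10 reads. They are 2 of the 39 receptor genes (5.13%), against 3.35% of all coding genes. The stronger Il17ra peak had as many reads in replicate 1 as the counted end regions of Il1rap and Il27ra. None of the 3 peaks overlapped a peak of replicate 2, and they are not counted as shared.

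**Figure D4:**
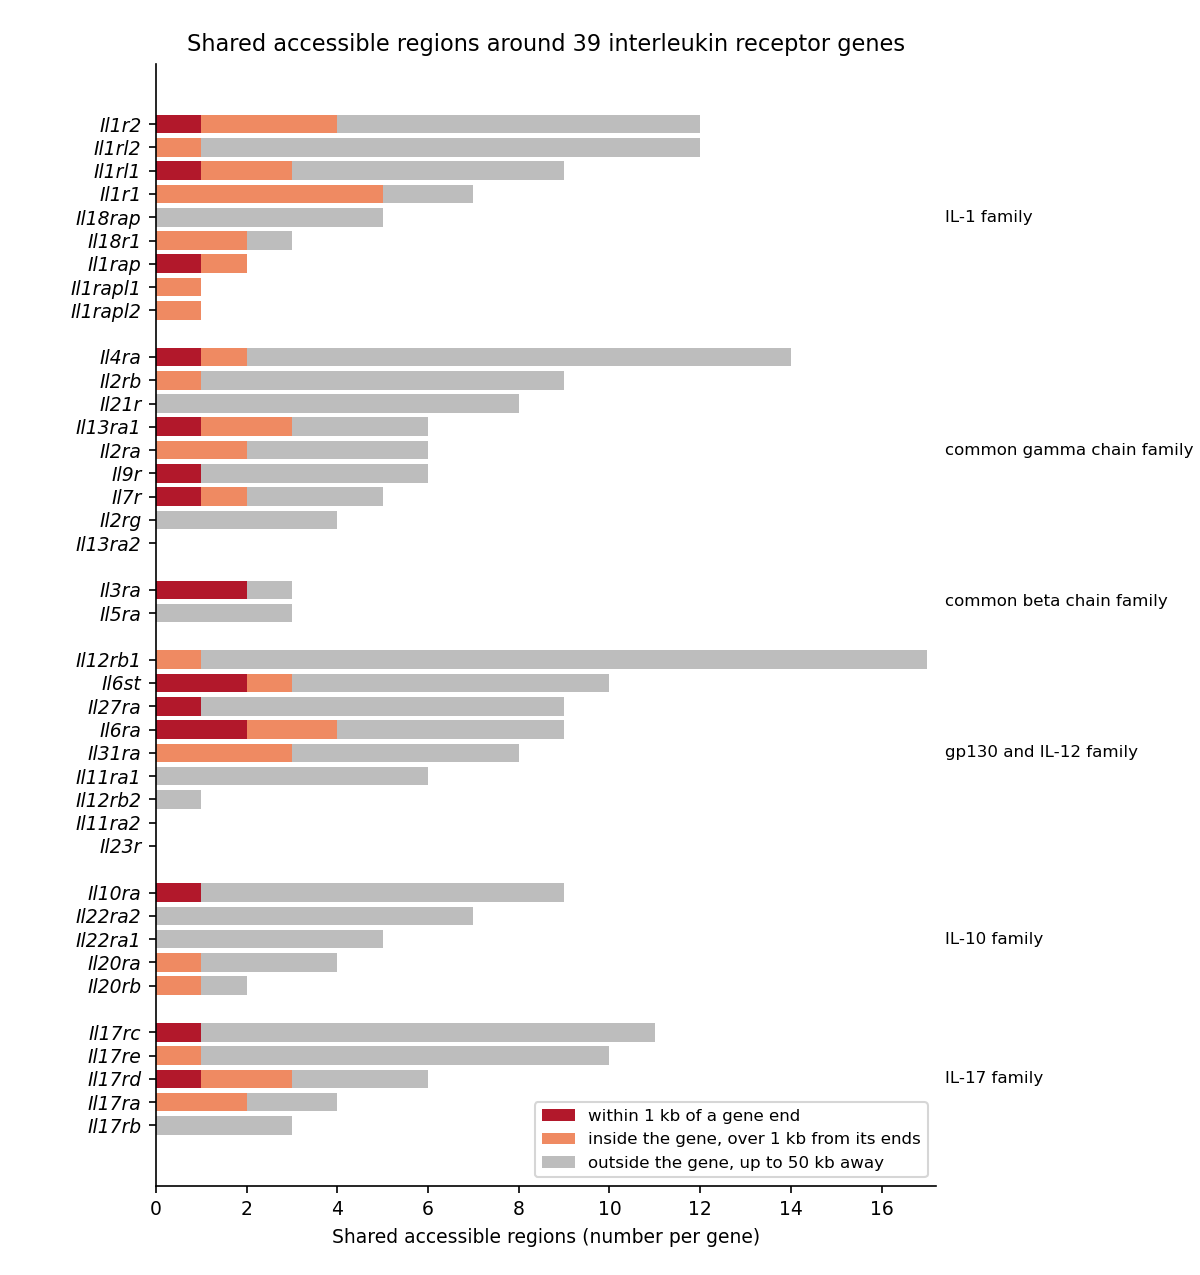
The number of shared regions inside or within 50 kb of each of the 39 interleukin receptor genes (x axis, number per gene) is drawn as a bar for each gene (y axis, grouped by family), split by colour into regions within 1 kb of an end, regions further inside the gene and regions outside it. Counts run from 0 at Il11ra2, Il23r and Il13ra2 to 17 at Il12rb1, with a median of 6.

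Over all members, the window counts ran from 0 to 17 with a median of 6, against 5 over all coding genes. Per 100 kb of window the medians were 3.93 and 3.35. The 5 genes with most regions were Il12rb1 with 17, Il4ra with 14, Il1r2 and Il1rl2 with 12 each and Il17rc with 11. The remaining members had 10 or fewer. Since 35 of the 198 distinct regions (17.7%) fell in more than 1 window, the 39 counts add up to 237.

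Of the 198 regions, 17 (8.59%) lay within 1 kb of an end of a receptor gene, 37 (18.7%) elsewhere inside one and 144 (72.7%) in the flanks. Of all 198, 44 (22.2%) stood within 1 kb of an end of another coding gene. In strength they were like the shared regions at large. The median fold enrichment was 7.22 in replicate 1 for the receptor regions and 7.22 for all shared regions, and 7.59 and 7.59 in replicate 2. Median summit reads were 18 and 17 in replicate 1, and 25 and 25 in replicate 2. The median width was 200 bp against 198 bp. The top 5% of all shared regions by score held 11 of the 198 (5.56%), and the top 1% held 2 (1.01%).

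Of the peaks listed around the receptor genes, 201 of 218 in replicate 1 (92.2%) and 198 of 243 in replicate 2 (81.5%) overlapped a peak of the other list, against 90% and 76.5% of all peaks. The 17 and 45 peaks that did not had median summit reads of 10 and 15. The peaks found in both lists had medians of 18 and 25. By median, peaks of a single list thus had fewer reads, around the receptor genes as over the whole list.

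Genes that pass on or shape the receptor signal, and the genes of the ligands, were counted in the same way. A shared region lay within 1 kb of an end of 20 of 28 signalling partners (71.4%), and their median window count was 8.5, against 47.8% and a median of 5 over all coding genes. Stat3, which mediates signals of gp130 and of interleukin-10, had 11.4 and 11.4 from 34 and 43 reads. Irak4, the kinase that follows MyD88, had 8.06 and 11.5 from 27 and 62 reads. Jak1, 1 of the JAK kinases, had 9.89 and 12.2 from 22 and 43 reads. These are the 3 partners with the best-scoring end regions. No end region was listed at Sigirr, Stat4, Stat5b, Csf2rb, Csf2rb2, Lifr, Osmr or Ebi3. Ebi3 was counted among the partners as a related chain, although it encodes a secreted subunit of interleukin-27. Of the ligand genes, 6 of 32 (18.8%) had one, Il6, Il11, Il12b, Il18, Il19 and Il23a, and the median window count was 3.5, against the same 47.8% and 5. The lists were chosen with results of these data known, and no test of the difference between them was made.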

How the data were processed

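ATAC-seq peak lists of 2 unstimulated samples were used; the 6 ChIP-seq samples were not analysed here. Per the submitters' processing notes, the build was mm10 and the tools included MACS2, HOMER 4.9.1, Picard 2.8.1, BWA 0.7.17 and Trimmomatic. The threshold, transposase shift and handling of duplicates are not given in the sources used here; each can affect weak peaks. The authors deposited, per summit, a score, a fold enrichment (ratio to background), −log10 p and −log10 q values and a summit offset, with peaks called per sample. The lowest deposited −log10 q was 3 in both lists.

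Summits of a peak were joined, and overlaps were computed with Python 3.11.15, numpy 2.4.6, pandas 2.3.3 and scipy 1.17.1 (figures: matplotlib 3.10.9). Summit reads and background were worked out from p and fold enrichment, taken as reads plus 1 over background plus 1. This returned the authors' −log10 p to within 0.002 at 100% of summits. In replicate 1, 13 summits had no position and counted only as part of their peak. Rank and percentile are of the mean score percentile over both lists. The counting steps were tested on simulated data. Genes and promoters came from RefSeq GRCm38.p6.

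Members and lists were chosen with earlier results of these data known. Described with values are members with a shared region within 1 kb of an end, the 5 with most regions, those with none, and those with an end peak in 1 replicate only, each by its best-scoring region; other regions and the other members' values were chosen after they were seen. Alternatives were other windows, overlaps and score limits, each replicate alone, and the union.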

Additional observations from a re-analysis of the deposited data

How the results depend on the processing

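The limits are 2 libraries of 1 condition, no strand for 6 genes, and regions assigned by position alone. Of 52 alternative values, 33 stayed near the reported one and 19 moved. For counts of genes and regions, nearness was judged by a wide limit on the count alone, without the share over all coding genes. A count that stayed near can therefore still lose its gap to that share. The count of 14 genes with an end region was 9 of 33 (27.3%, against 49.3% of all coding genes) when only listed starts were used. It was 19 (48.7%, against 52.3%) with windows of 2 kb, so the gap of 35.9% against 47.8% was mostly gone there. It was 10 (25.6%, against 34.8%) at a −log10 q of at least 10 and likewise among the better-scoring 50% of each list, and 11 without regions at ends of other coding genes, an alternative chosen after seeing the data. At both stricter limits Il1rl1, Il3ra, Il27ra and Il13ra1 were lost. It was 14 (35.9%, against 50.2%) without replicate 1 and 16 (41%, against 48.9%) without replicate 2. Il20ra and Il17ra were gained without replicate 2, and the gap to all coding genes was smaller there. The 27 genes with a region in the body became 19 (48.7%, against 44.1%) at the stricter score limit, so most of that gap was gone. The 36 genes with a region inside or within 50 kb became 34 (87.2%, against 72.2%) at that limit. They became 29 with each region given to 1 gene and 33 without regions at other genes' ends. The share over all coding genes was not worked out for either setting. The gap of 92.3% against 79.5% therefore cannot be judged there.

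The median of 6 regions per gene was 3 at a −log10 q of at least 10 and 3 among the better-scoring 50%, 2 with each region given to 1 gene, 8 with flanks of 100 kb, 2 with flanks of 20 kb, 5 with a reciprocal overlap of 50%, 4 without regions at other genes' ends, and 8 for the union. Leaving out 1 replicate gave 6 to 7. Over all coding genes it was 2, 2, 8, 2, 4 and 7 for the stricter score limit, the better-scoring 50%, 100 kb, 20 kb, the reciprocal overlap and the union. The 198 regions became 102 at the stricter limit, 99 among the better-scoring 50%, 87 with each region given to 1 gene, 310 with flanks of 100 kb and 112 with flanks of 20 kb. Leaving out 1 replicate gave 218 to 243. The share of replicate 1 peaks (92.2%) was 82.5% among the better-scoring 50% and 82.6% with the reciprocal overlap. That of replicate 2 (81.5%) was 68% at the stricter limit and 74.1% with the reciprocal overlap. The same shares over all peaks were not worked out for these settings, so they cannot be compared with the whole list. Without a replicate these shares cannot be given. No paired analysis was possible because there is 1 group and no comparison between groups.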
